A study of Mus musculus with 42 samples.

Results

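Crisp1, Crisp2, Crisp3, Crisp4, Adam7, Adam28, Bsph1 and Bsph2 were followed across the mouse reproductive tract of wild-type (WT) mice and of mice mutant for Hoxa9, Hoxa10 and Hoxa11 or for Hoxd9, Hoxd10 and Hoxd11. The 8 genes code for proteins of the epididymis and of sperm, and were taken by gene symbol from the annotation of the arrays' probe sets. A probe set whose single symbol was one of these names was found for 7 of the 8 genes, 1 probe set each, among 19938 genes measured. Crisp1 was not analysed here, because no probe set carried its symbol alone. The arrays were Affymetrix whole-transcript arrays of adult mice of mixed CD1/129 background, aged 3 to 7 months, with females collected in diestrus. Vas deferens and uterus were sampled from WT mice and from 4 mutants. AKO mice were Hoxa9,10,11-/-, DKO mice were Hoxd9,10,11-/-, AKDH mice were Hoxa9,10,11-/-d9,10,11+/- and AHDK mice were Hoxa9,10,11+/-d9,10,11-/-. Caudal epididymis and oviduct were sampled from WT and AKO mice. Each of the 14 groups held 3 arrays, 42 in all, which the labels call biological replicates, and 21 arrays were male. The labels do not say how the mutant alleles were made or which arrays came from the same mouse, and the p-values therefore cover only the variation among these arrays. The labels name no tissue-specific driver for the mutations, and whole tissue was measured.

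CRISP proteins are cysteine-rich secretory proteins of the CAP superfamily. CRISP1 and CRISP4 are secreted by the epididymal epithelium and bind to passing sperm, CRISP2 is made in the testis and stored in the sperm acrosome, and CRISP3 is best known from salivary gland. ADAM7 is a membrane protein of the epididymis that is transferred to the sperm surface, while ADAM28 is a membrane metalloprotease known from epididymis and from lymphocytes. BSPH1 and BSPH2 belong to the binder-of-sperm family, fibronectin type II proteins that attach to sperm membrane lipids and act in capacitation. Posterior Hox genes of these clusters set the identity of segments along the reproductive duct in both sexes.

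RefSeq promoter windows were found for 5 of the 8 genes, each covering 250 bases before and 50 bases after the start of the gene. The windows of Crisp4 and Bsph2 are printed because these genes gave the steadiest differences between samples, and that of Crisp3 because it is the measured gene that stayed flat. Capitals mark AGAACA or its reverse complement TGTTCT, the core letters of the site bound by the androgen receptor, on which much epididymal secretion depends.
Crisp4 (GRCm38.p6, chr1:18145853-18146152, minus strand): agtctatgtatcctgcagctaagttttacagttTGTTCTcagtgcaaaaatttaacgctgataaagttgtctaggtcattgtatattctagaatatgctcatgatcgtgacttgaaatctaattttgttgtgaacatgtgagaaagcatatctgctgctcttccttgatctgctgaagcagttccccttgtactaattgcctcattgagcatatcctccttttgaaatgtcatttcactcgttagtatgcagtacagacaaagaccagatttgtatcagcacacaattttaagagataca
Bsph2 (GRCm38.p6, chr7:13571018-13571317, minus strand): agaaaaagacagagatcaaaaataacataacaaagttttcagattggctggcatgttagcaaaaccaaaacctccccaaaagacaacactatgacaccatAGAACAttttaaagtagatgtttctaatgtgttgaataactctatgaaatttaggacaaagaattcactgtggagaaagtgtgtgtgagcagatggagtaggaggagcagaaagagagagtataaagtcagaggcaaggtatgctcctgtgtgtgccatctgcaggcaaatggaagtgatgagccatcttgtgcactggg
Crisp3 (GRCm38.p6, chr17:40242239-40242538, minus strand): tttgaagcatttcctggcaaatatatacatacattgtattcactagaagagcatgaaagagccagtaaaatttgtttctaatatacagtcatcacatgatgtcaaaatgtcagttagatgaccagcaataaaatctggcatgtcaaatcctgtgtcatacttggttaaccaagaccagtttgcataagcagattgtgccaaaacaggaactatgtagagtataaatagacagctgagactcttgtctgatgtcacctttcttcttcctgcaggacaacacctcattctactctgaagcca
The motif AGAACA, searched on both strands, was present in 19.0% of the 32851 RefSeq promoters of this length. It began at position -217 in Crisp4 (as TGTTCT), -150 in Bsph2 and 20 in Crisp1, counted from the gene start, and was not in the windows of Crisp2 or Crisp3. The posterior Hox letters TTTATG (11.9% of promoters) and TTTACG (3.03%) were in none of the 5 windows on either strand. TATAAA, present in 13.6% of promoters, began at -31 in Crisp1 and Crisp3 and at -30 in Bsph2. It also lay further upstream in Crisp2, at -97 and, on the other strand, at -118. The windows of Crisp1 and Crisp3 were identical at 287 of 300 positions (95.7%), against 69 of 300 for Crisp3 and Crisp4. How far the Crisp3 probe set also detects Crisp1 RNA was not tested.

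The deposited values are log values, taken here as log2, in which every probe set has a median of 0 over the male arrays and again over the female arrays. A value is thus a level relative to the middle array of that sex. A flat gene may be absent or evenly present, values of different genes cannot be ranked, and male and female arrays were not compared. Among the targeted genes, Hoxa11 was 1.51 lower in AKO and 1.66 lower in AKDH vas deferens than in WT on the log2 scale (limma adjusted p 0.00961 and 0.0027). Hoxa10 was at -0.58 and -0.86 against WT in these mutants (0.176 and 0.0243) and Hoxa9 at 0.35 and 0.28 (0.309 and 0.299). Hoxd9 fell by 0.55 in DKO and by 0.49 in AHDK vas deferens (limma adjusted p 0.00581 and 0.00885), and was 0.45 higher in AKO (0.00530). Hoxd11 was at -0.47 in DKO and -0.46 in AHDK (0.144 and 0.186), and Hoxd10 at 0.16 and 0.33 (0.774 and 0.517). Hoxa11 in uterus was at -2.56 in AKO and -2.78 in AKDH (0.112 and 0.0161). In uterus labelled DKO, Hoxd9, Hoxd10 and Hoxd11 differed from WT by -0.12, 0.18 and -0.17, all overlapping WT, so these genes did not check that label. The same held in AKO oviduct, where Hoxa9, Hoxa10 and Hoxa11 were at -0.15, -0.34 and -0.56, all overlapping WT. In AHDK uterus, Hoxd9, Hoxd10 and Hoxd11 were at -0.01, 0.13 and -0.84, none of them called. In AKO epididymis, Hoxa9, Hoxa10 and Hoxa11 were at -0.21, -0.62 and -0.99, none of them called. Whether the probe sets of the targeted genes lie in the mutated part of the genes was not analysed here. The tissue labels were checked with 15 smooth muscle genes, all 15 of which were called lower in WT epididymis than in WT vas deferens, which has a thick muscle coat. Among male arrays, AKO epididymis replicate 1 stood apart in genes of the caput epididymis, and AKDH vas deferens replicate 3 in sperm genes. WT oviduct replicate 2 stood apart among female arrays in ovary genes. A gene was called when its limma p, adjusted by Benjamini-Hochberg over 19938 genes, was below 0.05.

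Crisp4, Bsph2, Adam7 and Crisp2 were all higher in WT caudal epididymis than in WT vas deferens, the next segment of the male duct. Crisp4 had log2 values of 4.35, 4.77 and 4.33 in the 3 WT epididymis arrays and -1.37, -1.54 and -1.34 in the 3 WT vas deferens arrays. Bsph2 stood at 4.14, 4.57 and 4.65 in epididymis and at -1.07, -1.05 and -0.56 in vas deferens. Both genes were thus tight within each tissue and far apart between tissues. The WT vas deferens values of Adam7 were -1.58, -4.59 and -3.10, a spread of SD 1.51, whereas its epididymis values of 2.35, 2.25 and 2.16 lay close together. The log2 difference, epididymis minus vas deferens, was 5.90 for Crisp4 (SE 0.39, 59.8-fold, limma adjusted p 2.64e-08). It was 5.35 for Bsph2 (SE 0.30, 40.7-fold, limma adjusted p 5.48e-09) and 5.35 for Adam7 (SE 0.78, 40.7-fold, limma adjusted p 7.00e-05). By absolute difference Crisp4 ranked 3, Bsph2 9 and Adam7 10 of the 19938 genes in this comparison. Crisp2 differed by 3.19 (SE 0.93, 9.10-fold, limma adjusted p 0.0159), from 3.30, 2.06 and 2.61 in epididymis against -0.88, -0.85 and 0.14 in vas deferens. That call was lost, with the direction kept, without WT vas deferens replicate 1 (3.01, limma adjusted p 0.0525), WT vas deferens replicate 2 (3.03, 0.0537) or WT epididymis replicate 1 (2.86, 0.0598), and with quantile normalisation (2.33, 0.0639). In all, 4 of the 7 measured genes were called higher and none lower, where 11.2% of all genes were called higher and 28.1% either way. The 2 tissues did not overlap in these 4 genes, with epididymis higher, as was found for 19.4% of all genes. Crisp3, Adam28 and Bsph1 differed between the WT tissues by 0.02, -0.02 and 0.02, with overlapping arrays.

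**Figure D1:**
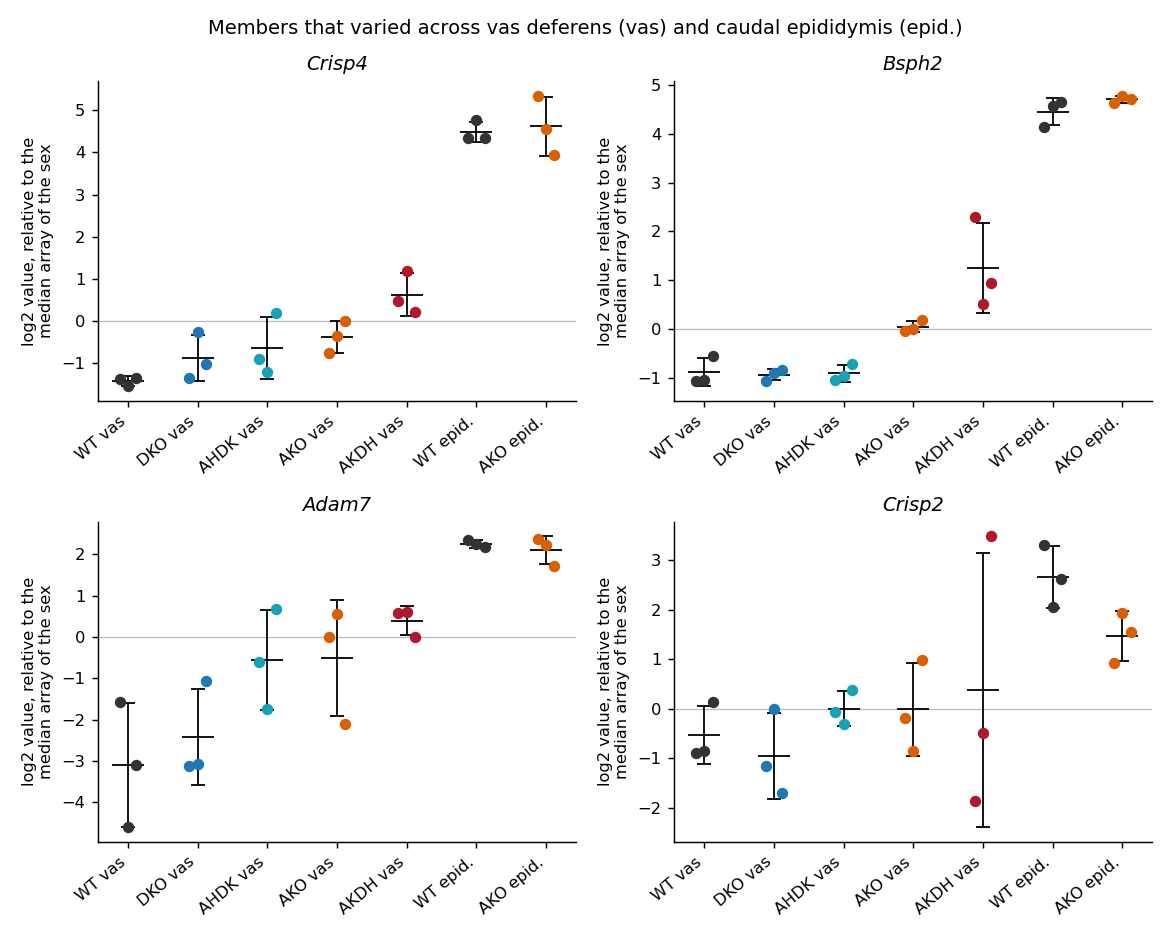
Log2 value of Crisp4, Bsph2, Adam7 and Crisp2 on each male array, relative to the median male array, by group. Points are arrays, long bars are means and short bars are SDs over 3 arrays. Crisp4 and Bsph2 lie above 3.9 on every epididymis array and below 2.4 on every vas deferens array, with AKDH the highest vas deferens group.

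In the vas deferens, Crisp4, Bsph2 and Adam7 rose in AKDH mice, which lack both copies of the 3 Hoxa genes and carry mutations in 1 copy of the 3 Hoxd genes. AKDH values of Crisp4 were 0.48, 1.20 and 0.21, all above the highest WT value of -1.34. Those of Bsph2 were 2.29, 0.51 and 0.94, against a WT maximum of -0.56. Adam7 stood at 0.58, 0.61 and -0.01, with -1.58 as its highest WT value. None of the 3 genes overlapped between AKDH and WT, and 13.8% of all genes were likewise apart with AKDH higher. The log2 difference from WT was 2.05 for Crisp4 (SE 0.38, 4.13-fold, limma adjusted p 0.00248), 2.14 for Bsph2 (SE 0.34, 4.41-fold, limma adjusted p 0.00098) and 3.49 for Adam7 (SE 0.89, 11.2-fold, limma adjusted p 0.0152). These were 3 of 7 genes called higher and 0 called lower, where 9.57% of all genes were called higher in AKDH and 24.3% either way. The medians were 0.92 over the 7 genes and -0.05 over all genes. The Crisp4 and Bsph2 calls held under all 14 alternatives run for each, with differences of 1.76 to 2.26 and 1.62 to 2.51. Among these, the choice of 1 probe set per gene could not change the difference of a member, which has only 1. Adam7 held under 12 of 14, and lost its call without WT vas deferens replicate 2 (2.74, limma adjusted p 0.0674) and with quantile normalisation (2.88, limma adjusted p 0.0780). In bulk tissue, more cells of a type and more RNA per cell cannot be told apart.

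AKO vas deferens, without the Hoxd change, gave values between WT and AKDH for Crisp4 and Bsph2. Crisp4 was at -0.76, -0.35 and 0.00 and Bsph2 at -0.04, 0.00 and 0.18, all 6 values above the WT arrays of the same gene. Adam7 was at 0.00, 0.57 and -2.09, the last of these inside the WT range. The differences from WT were 1.05 for Crisp4 (SE 0.38, 95% interval 0.23 to 1.86, limma adjusted p 0.110), 0.94 for Bsph2 (SE 0.34, limma adjusted p 0.109) and 2.58 for Adam7 (SE 0.89, limma adjusted p 0.0973). None of the 7 genes was called with limma, against 9.35% of all genes, while 3 of them had an unadjusted p below 0.05. Groups that did not overlap, with AKO higher, were found for 14.2% of all genes. Fitted on the 6 arrays of these groups alone, Bsph2 and Crisp4 were called with the same differences (limma adjusted p 0.0236 and 0.0301). Crisp4 was at 0.37 after quantile normalisation.

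DKO and AHDK vas deferens, in which both copies of the Hoxd genes are mutant, left Bsph2 overlapping WT. In DKO, Bsph2 values were -1.07, -0.90 and -0.85, and in AHDK they were -1.05, -0.96 and -0.72. Its differences from WT were -0.05 (95% interval -0.78 to 0.68) and -0.02 (95% interval -0.75 to 0.71). These intervals overlap that of the AKO difference (0.94, 95% interval 0.21 to 1.67) and not that of the AKDH difference (2.14, 95% interval 1.41 to 2.87). Crisp4 stood at -1.33, -0.26 and -1.02 in DKO and at -0.89, -1.20 and 0.20 in AHDK, in each case just clear of the WT arrays. The Crisp4 differences were 0.55 (limma adjusted p 0.466) and 0.79 (limma adjusted p 0.306), and non-overlapping, higher values were found for 18.8% of all genes in DKO and 9.33% in AHDK. Adam7 was at -3.11, -3.08 and -1.07 in DKO and at -0.61, -1.73 and 0.68 in AHDK, which overlapped WT in both. Its differences were 0.67 (limma adjusted p 0.758) and 2.54 (limma adjusted p 0.150). No gene of the 7 was called with limma in DKO, where 5.87% of all genes were, or in AHDK, where 4.15% were. At an unadjusted p below 0.05 there were 0 in DKO and 1, Adam7, in AHDK. All 4 mutants were set against the same 3 WT arrays.

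**Figure D2:**
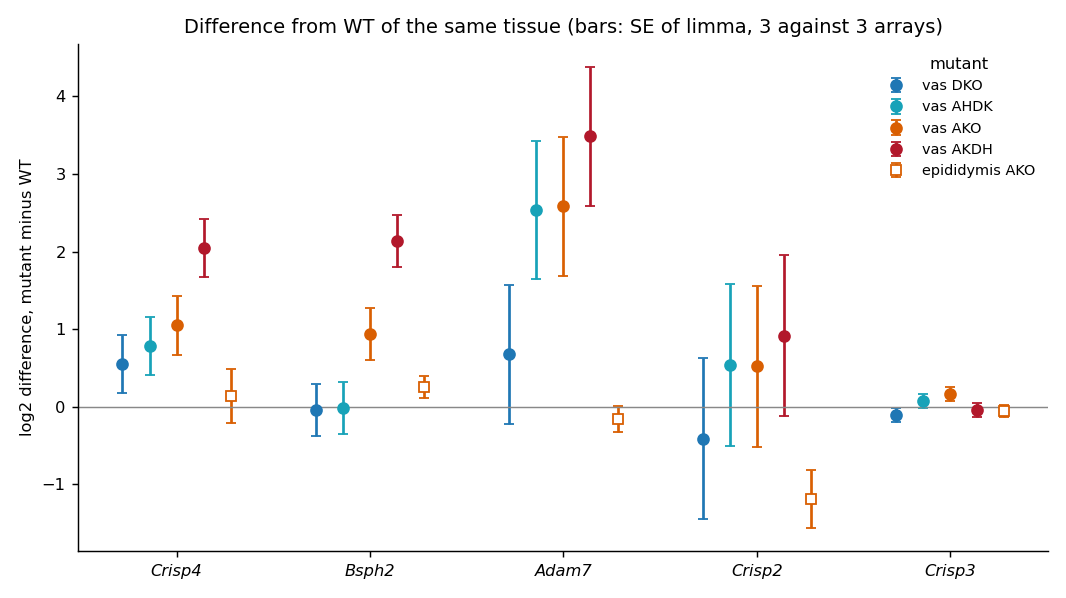
Log2 difference of each mutant from WT of the same tissue for Crisp4, Bsph2, Adam7, Crisp2 and Crisp3. Filled circles are vas deferens, open squares are AKO epididymis and bars are 1 SE from limma, 3 arrays against 3. The Bsph2 difference is near 0 in DKO and AHDK, 0.94 in AKO and 2.14 in AKDH, and for Crisp4, Bsph2 and Adam7 the epididymis squares lie between -0.16 and 0.25.

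The mutants were also compared with each other. AKDH exceeded AKO by 1.20 for Bsph2 (limma adjusted p 0.113) and by 1.00 for Crisp4 (limma adjusted p 0.243), and in both genes all 3 AKDH arrays lay above all 3 AKO arrays, as for 6.03% of all genes. Adam7 exceeded AKO by 0.90 with overlap (limma adjusted p 0.703). None of the 7 genes was called with limma in this comparison (1.29% of all genes were). An unadjusted p below 0.05 was reached by 3, with Crisp4 and Bsph2 higher in AKDH and Crisp3 lower. Without AKDH replicate 2, Bsph2 was called (1.57, limma adjusted p 0.0414). DKO lay below AKO by 0.99 for Bsph2 without overlap (limma adjusted p 0.0623), against 17.8% of all genes called and 15.7% apart and lower. That Bsph2 difference was called when fitted on these 2 groups alone (limma adjusted p 0.00171) or when only genes with an SD above the median were tested (limma adjusted p 0.0404). In the main fit of DKO against AKO, 0 of the 7 genes were called. There 2, Crisp3 and Bsph2, had an unadjusted p below 0.05, both lower in DKO. AHDK against DKO gave no call in the 7 genes with limma (0.366% of all genes were called, and 0 of the 7 had an unadjusted p below 0.05), with Adam7 1.86 higher in AHDK (limma adjusted p 0.409).

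Ordered by mean level, Crisp4 ran from WT vas deferens through DKO, AHDK, AKO and AKDH vas deferens to WT and AKO epididymis. Neighbouring groups in that order did not overlap at 3 steps: WT to DKO vas deferens, AKO to AKDH vas deferens, and AKDH vas deferens to WT epididymis. For Bsph2, DKO, AHDK and WT vas deferens overlapped at the low end, and AKO vas deferens, AKDH vas deferens and WT epididymis followed without overlap. Adam7 ran in the same order as Crisp4 among vas deferens groups, with each overlapping the next, and its epididymis groups stood clear above them. On the log2 scale, the AKDH difference from WT was 34.7% of the WT epididymis minus vas deferens difference for Crisp4, 40.1% for Bsph2 and 65.2% for Adam7. The corresponding AKO shares were 17.7%, 17.6% and 48.3%. Both differences behind each share use the same WT vas deferens arrays.

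Genes of other cell types moved in the same vas deferens arrays. Of 17 adipocyte genes, 15 were called higher in AKDH, 13 in AHDK, 12 in AKO and 0 in DKO (limma, and also 0 at an unadjusted p below 0.05). The mean log2 value of the adipocyte list was 0.95 to 1.21 in AKDH, 0.17 to 1.12 in AKO, 0.71 to 1.32 in AHDK, -0.48 to -0.21 in DKO and -0.98 to -0.03 in WT. Of 15 smooth muscle genes, 12 were called lower in AKDH and 3 in AKO. At an unadjusted p below 0.05, 14 were lower in AKDH and 13 in AKO. The list means were -0.42 to 0.00 in AKDH, -0.33 to 0.10 in AKO and 0.25 to 0.79 in WT. Of all genes, 14.8% were called lower in AKDH, and 9.35% were called either way in AKO. Of 14 seminal vesicle and prostate genes, 2 were called higher in AKDH and 4 in AKO. Their part in the differences of Crisp4, Bsph2 and Adam7 was not tested.

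Other epididymal sperm maturation genes were given by a list of 30 measured genes, of which 5 were called higher and 0 lower in AKO vas deferens. Its median difference was 0.01, against -0.02 for all genes. Rnase9, an epididymal ribonuclease-like protein, rose by 4.57 in AKO and 4.36 in AKDH vas deferens (limma adjusted p 0.000193 and 8.88e-05). Eppin, a protease inhibitor that coats sperm, rose by 3.56 and 3.81 (limma adjusted p 0.000785 and 0.000213), and Spink13, another protease inhibitor, by 2.99 and 3.56 (limma adjusted p 0.000199 and 2.85e-05). In AKDH 5 of the 30 were called higher and 2 lower, in AHDK 3 higher and 0 lower, and in DKO 0 either way with limma, with 1 at an unadjusted p below 0.05. Of 10 other CAP family genes, 0 were called in AKO with limma (2 at an unadjusted p below 0.05), and 1 was called lower in AKDH. That gene was Glipr1, at -1.05 in AKO (limma adjusted p 0.0760) and -1.51 in AKDH (limma adjusted p 0.00771). Of 19 testicular ADAM genes, 0 were called in AKO or AKDH with limma, with 0 and 2 at an unadjusted p below 0.05. Of 13 other ADAM genes, 0 were called in AKO with limma, with 4 at an unadjusted p below 0.05, and 4 were called lower in AKDH.

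In the caudal epididymis, Crisp4, Bsph2 and Adam7 overlapped between AKO and WT. AKO values were 5.35, 4.55 and 3.95 for Crisp4, 4.63, 4.78 and 4.71 for Bsph2, and 2.36, 2.22 and 1.72 for Adam7, all overlapping WT. The differences were 0.13 for Crisp4 (95% interval -0.71 to 0.98), 0.25 for Bsph2 (-0.09 to 0.59) and -0.16 for Adam7 (-0.57 to 0.26). The sign of the Crisp4 difference turned without AKO epididymis replicate 1 (-0.23), and with quantile normalisation it turned for Crisp4 (-0.73) and Bsph2 (-0.33). In the same arrays the mean log2 value of 15 smooth muscle genes was -1.78 to -1.22 in AKO and -0.84 to -0.19 in WT. Of these 15, 11 were lower at an unadjusted p below 0.05, and Des, the muscle filament desmin, was called at -1.64 (limma adjusted p 0.0473). The mean of the list of 30 epididymal genes was 1.04 to 3.55 in AKO and 0.33 to 0.63 in WT epididymis. The AKO average of 1.89 was pulled up by its highest array. This list shares genes with the list of 23 caput and initial segment genes, in which AKO epididymis replicate 1 stood apart at 3.33. Of the 30 epididymal genes, 8 were higher and 0 lower at an unadjusted p below 0.05. Spint5 and Spint4 of that list were called at 4.57 and 5.08 (limma adjusted p 0.000822 and 0.0107). The part of tissue make-up in the member values was not tested. No gene of the 7 was called with limma, where 0.782% of all genes were, and 1, Crisp2, had an unadjusted p below 0.05. Within AKO mice, epididymis still exceeded vas deferens by 4.99 for Crisp4 (SE 0.39, 31.7-fold, limma adjusted p 3.49e-07), by 4.66 for Bsph2 (SE 0.30, 25.3-fold, limma adjusted p 3.89e-08) and by 2.61 for Adam7 (SE 0.78, 6.10-fold, limma adjusted p 0.0321). These 3 of 7 were called higher, against 7.15% of all genes. The Adam7 call was held in 6 of 14 alternatives, with differences of 1.82 to 3.15. It was lost without AKO vas deferens replicate 1 (2.86, limma adjusted p 0.0506) or 3 (1.82, 0.149), and without AKO epididymis replicate 1 (2.48, 0.0817), 2 (2.55, 0.0680) or 3 (2.80, 0.0596). It was also lost with quantile normalisation (2.30, limma adjusted p 0.120), without the libraries that stand apart (2.48, limma adjusted p 0.0768) and with only these groups fitted (limma adjusted p 0.0556). The difference of the AKO effect between epididymis and vas deferens was -2.74 for Adam7 (limma adjusted p 0.162), -0.92 for Crisp4 (limma adjusted p 0.389) and -0.69 for Bsph2 (limma adjusted p 0.405). By limma, 0 of the 7 genes and 7.22% of all genes were called for it, and Adam7 alone of the 7 had an unadjusted p below 0.05.

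Crisp2, the sperm-borne member of its family, was lower in mean in AKO than in WT epididymis, without passing the test. Its AKO epididymis values were 0.92, 1.93 and 1.54, all below the WT values of 3.30, 2.06 and 2.61. The difference was -1.19 (SE 0.38, limma adjusted p 0.208), and values apart and lower were found for 9.02% of all genes. Without AKO epididymis replicate 1 it was -0.92 (limma adjusted p 0.289). Of 22 sperm and spermatid genes, 6 were called lower and 0 higher in AKO epididymis, where the protamines Prm1 and Prm2, which pack sperm DNA, differed from WT by -4.89 and -4.76 (limma adjusted p 0.00165 and 0.00307). The mean log2 value of that list was 2.25, 1.25 and 1.46 in WT epididymis and -0.27, 0.15 and 0.01 in AKO epididymis. The part of sperm number in the Crisp2 values was not tested.

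In the vas deferens, Crisp2 had its highest and its lowest male value in the same group. AKDH arrays were at -1.85, -0.48 and 3.48, and the sperm list had means of -0.78, -0.62 and 1.35 in the same arrays. The AKDH difference from WT was 0.92 (SE 1.04, limma adjusted p 0.540) and -0.63 without AKDH replicate 3 (limma adjusted p 0.478). AKO values were -0.18, -0.84 and 0.99, DKO values -1.15, 0.00 and -1.69 and AHDK values -0.07, -0.30 and 0.39. Every mutant group overlapped WT, with differences of 0.52, -0.41 and 0.54. The sperm list did not follow Crisp2 in AKO vas deferens, with means of -0.47 to -0.26 against -0.03 to 0.28 in WT. Prm1 and Prm2 were called lower there, at -2.82 and -2.89 (limma adjusted p 0.0118 and 0.0143). The list mean was -0.04 in AKO epididymis and 0.10 in WT vas deferens, where Crisp2 averaged 1.47 and -0.53. The 5 genes most like Crisp2 by Pearson's r over the 21 male arrays were Tcp11 (0.967), Pgk2 (0.966), Prss39 (0.958), Fabp9 (0.950) and Plaat5 (0.949). Tcp11, a protein of testis and sperm, Prss39, a testicular serine protease, and Pgk2, the sperm form of phosphoglycerate kinase, are genes of male germ cells. The arrays share tissue and sperm content, so these correlations are a description.

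**Figure D3:**
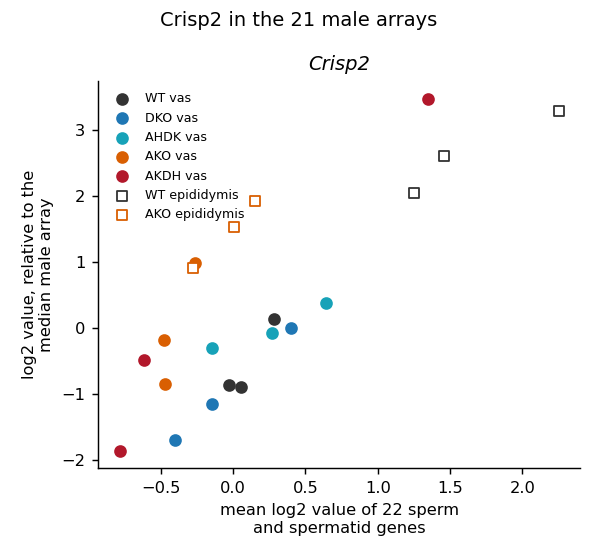
Crisp2 on each of the 21 male arrays (log2 value relative to the median male array) against the mean log2 value of 22 sperm and spermatid genes on the same array. Filled circles are vas deferens and open squares are epididymis. The AKDH vas deferens array at 3.48 for Crisp2 also has a sperm mean of 1.35, within the WT epididymis range of 1.25 to 2.25, while the other AKDH arrays have the lowest sperm means.

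Adam28 and Bsph1 were flat in the male tract apart from 1 array. Adam28 lay between -0.13 and 0.12 in 20 male arrays and at 5.56 in AKO epididymis replicate 1. Bsph1 lay between -0.08 and 0.05 in those 20 arrays and at 4.92 in the same replicate. Over the 20 arrays, 5.81% of genes had a smaller SD than Adam28 and 0.998% a smaller SD than Bsph1. AKO epididymis replicate 1 also had a mean of 3.33 for 23 genes of the caput and initial segment, the first part of the epididymis, against 0.43 and 0.49 in the other AKO epididymis arrays and 0.16 to 0.27 in WT. The AKO minus WT difference in epididymis was 1.84 for Adam28 (SE 1.51, limma adjusted p 0.645) and 1.65 for Bsph1 (SE 1.31, limma adjusted p 0.634). Without that array the differences were -0.03 and 0.01. The other members in this array were at 5.35 for Crisp4, the highest Crisp4 value of all, at 4.63 for Bsph2, at 2.36 for Adam7 and at 0.92 for Crisp2, the lowest Crisp2 value in epididymis. Without it, Crisp4 and Bsph2 remained called in AKO epididymis against AKO vas deferens. What tissue that array held was not tested.

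**Figure D4:**
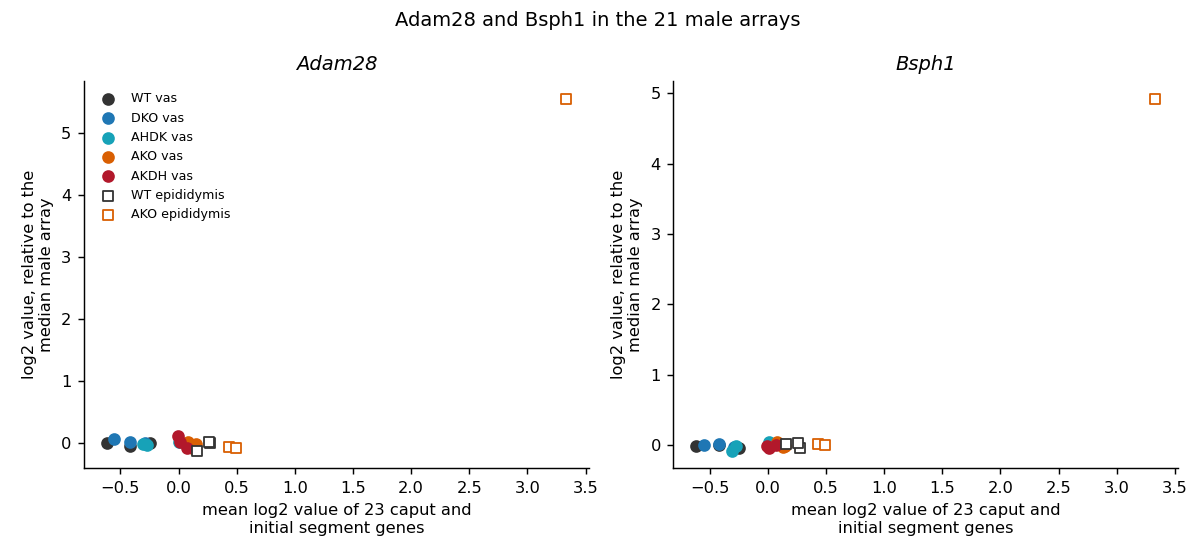
Adam28 and Bsph1 on each of the 21 male arrays (log2 value relative to the median male array) against the mean log2 value of 23 caput and initial segment genes. Filled circles are vas deferens and open squares are epididymis. AKO epididymis replicate 1 stands alone at 5.56 and 4.92 with a caput mean of 3.33, and the other 20 arrays lie within 0.13 of 0 in both genes.

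The Pearson correlation of Adam28 with Bsph1 was 0.999 over 21 male arrays and -0.005 over the 20 without AKO epididymis replicate 1. Apart from each other, both genes had Klrb1a and Cst12, an epididymal cystatin, among the genes most like them over 21 arrays. The lists also held Defb45 and Rnase13 for Adam28, and Defb41 and Teddm2 for Bsph1. Defb41 and Defb45 are epididymal beta-defensins. All these genes had r of 0.02 to 0.47 over those 20 arrays. For Crisp4 and Bsph2 the correlation was 0.967 over 21 arrays. Crisp4 was most like Defb22 (0.974), a beta-defensin that coats sperm, Nxf3 (0.972), Plekha8 (0.971), Defb14 (0.970) and BC048679 (0.970). Bsph2 was most like Elovl2 (0.987), a fatty acid elongase, Gm4988 (0.985), Nxf3 (0.980), Cyp17a1 (0.979), a steroidogenic enzyme, and Defb14 (0.978). The 2 lists shared Nxf3 and Defb14. For Adam7 the list was Rnase11 (0.963), Aldh6a1 (0.943), Pim2 (0.938), Cyb561 (0.933) and Rrp8 (0.926). Without AKO epididymis replicate 1, r for the genes named with Crisp4, Bsph2 and Adam7 was 0.920 to 0.986.

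Crisp3 stayed within -0.20 and 0.37 on the male arrays and within -0.05 and 0.05 on the female arrays. No comparison called it. Its unadjusted limma p was below 0.05 in vas deferens AKDH against AKO and DKO against AKO, and in AKO epididymis against AKO vas deferens. Its differences from WT in the vas deferens were 0.07 in AHDK, -0.04 in AKDH, -0.11 in DKO and 0.16 in AKO, and -0.05 in AKO epididymis. DKO lay below AKO by 0.27 without overlap (limma adjusted p 0.0620), as for 15.7% of all genes. The gene most like it, Smim31, reached an r of only 0.741 over 21 arrays.

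The members sit in 4 places of the RefSeq gene order, with Crisp1, Crisp2 and Crisp3 near each other on chromosome 17, Crisp4 on chromosome 1, Adam7 and Adam28 near each other on chromosome 14 and Bsph1 next to Bsph2 on chromosome 7. Members near each other on chromosomes 7 and 14 did not share a pattern. Bsph2 rose in AKDH vas deferens and Bsph1 differed by 0.00 there, and Adam7 rose while Adam28 differed by 0.04. Bsph1 and Adam28 were flat in vas deferens, and a flat gene may be absent. Of 26 other protein-coding neighbours, up to 3 on each side of a member, 1 was called higher and 1 lower in AKDH vas deferens, beside 9.57% and 14.8% of all genes. The higher one was Stc1, a secreted glycoprotein hormone on the far side of Adam28 (1.64, limma adjusted p 0.000168), and the lower one Dock5 (-0.78, limma adjusted p 0.000516). In WT epididymis against WT vas deferens, 5 of the 26 neighbours were called higher and 1 lower, where 11.2% of all genes were called higher and 28.1% either way. Pgk2, the germ cell gene listed with Crisp2 above, is one of these 5 and lies beside Crisp3 (2.45, limma adjusted p 0.0159).

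In the female tract, Adam28 alone of the 7 genes varied. The other 6 lay between -0.13 and 0.17 on all 21 arrays, and at most 6.88% of genes had a smaller SD than any of these 6. WT uterus values of Adam28 were -1.31, -0.54 and -1.28. WT oviduct values were 0.07, 0.23 and 0.77, all above WT uterus, as for 19.4% of all genes. The difference, oviduct minus uterus, was 1.40 (SE 0.34, 2.64-fold, limma adjusted p 0.00687), so that 1 of 7 genes was called higher, where 14.5% of all genes were called higher and 23.9% either way. WT oviduct replicate 2, whose mean over 13 ovary genes was the highest, at 2.25, had an Adam28 value of 0.23, the middle of its group.

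Mutant uteri had higher mean Adam28 than WT uterus, none of them called. Values were 0.00, 0.00 and -0.13 in AKO, 0.44, -0.11 and 0.55 in AHDK, 0.39, -0.25 and -0.70 in AKDH and -0.19, -0.51 and -1.63 in DKO. AKO and AHDK lay above all WT arrays, whereas AKDH and DKO overlapped them. The differences were 1.34 in AHDK (SE 0.37, 95% interval 0.54 to 2.14, limma adjusted p 0.0653), 1.00 in AKO (SE 0.37, limma adjusted p 0.377), 0.86 in AKDH (limma adjusted p 0.185) and 0.27 in DKO (limma adjusted p 0.792). By limma 0 of the 7 genes were called in any of the 4, against 3.53% of all genes in AHDK, 0.0903% in AKO, 6.58% in AKDH and 0.973% in DKO. Groups apart and higher were found for 14.2% of all genes in AHDK and 7.91% in AKO. An unadjusted p below 0.05 was reached by Adam28 in AHDK, AKO and AKDH, and by none of the 7 in DKO. With only genes of above-median SD tested, Adam28 was called in AHDK (limma adjusted p 0.0450).

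AHDK exceeded DKO by 1.07 for Adam28, without overlap (limma adjusted p 0.521), as for 5.61% of all genes. Uterus labelled DKO lay below AKO by 0.74, also without overlap (limma adjusted p 0.408), as for 8.65% of all genes, and AKDH differed from AKO by -0.14 (limma adjusted p 0.950). None of the 7 genes was called with limma in these 3 comparisons, where 0.0251%, 0.186% and 0% of all genes were called, and 1, 0 and 0 of the 7 had an unadjusted p below 0.05. AKO oviduct was at 0.62, 0.34 and 0.81 for Adam28, overlapping WT oviduct, with a difference of 0.23 (limma adjusted p 0.993). No gene of the array, 0% of 19938, was called there with limma, and 0 of the 7 had an unadjusted p below 0.05. AKO oviduct exceeded AKO uterus by 0.63, without overlap (limma adjusted p 0.221), where 17.8% of all genes were called and 17.3% were apart and higher. Fitted on those 2 groups alone it was called (limma adjusted p 0.0190). The difference of the AKO effect between oviduct and uterus was -0.77 (limma adjusted p 1.00). Because Adam28 is also a lymphocyte gene, 13 B and plasma cell genes were set beside it. Their mean log2 value was -0.29 to 0.09 in WT uterus, 0.11 to 0.32 in AHDK uterus, -0.28 to 0.11 in AKO uterus, -0.10 to 0.46 in DKO uterus and -0.08 to 0.32 in WT oviduct. Their part in the Adam28 values was not tested.

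**Figure D5:**
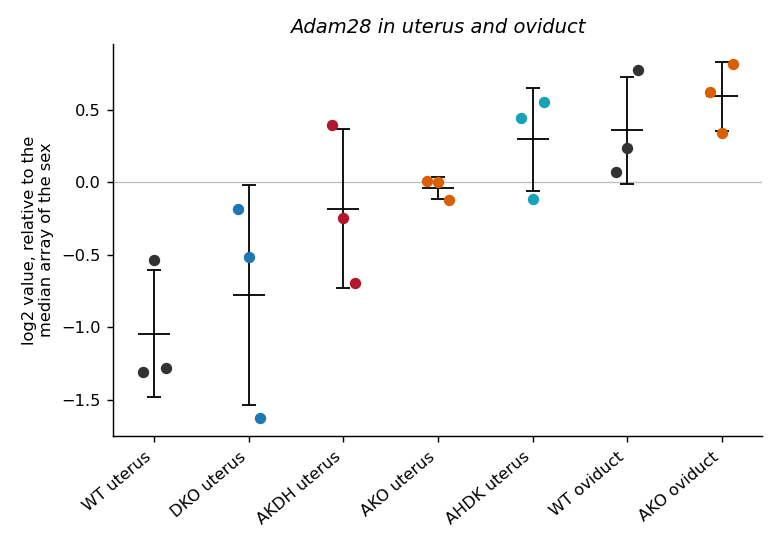
Log2 value of Adam28 on each female array, relative to the median female array, by group. Points are arrays, long bars are means and short bars are SDs over 3 arrays. WT uterus is lowest in mean and oviduct highest, and the AKO and AHDK uterus arrays lie above all WT uterus arrays.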

How the data were processed

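Total RNA of fresh tissue was purified on columns, and 300 ng per sample was copied to cDNA, fragmented and labelled with biotin, per the labels' protocols. The deposited value table held log2 values (log base assumed) of 28856 probe sets on 42 arrays. The sources used here name no summarisation, normalisation or genome build. Each probe set had a median of 0 over the 21 male and over the 21 female arrays, so signal over background is unknown. The array median lay between -0.0538 and 0.0371 and the array SD between 0.177 and 0.644, and the number of arrays limits the precision.

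Of the probe sets, 21789 had 1 gene symbol, 1621 several and 5446 none, and 21698 of those with 1 symbol matched RefSeq genes of GRCm38.p6, a table used for names and gene order only. Probe sets of a gene were averaged (19938 genes, 18939 with 1 probe set). limma 3.58.1 in R 4.3.3 (lmFit, eBayes) was first tested on simulated data, then fitted per tissue, or per sex for comparisons between tissues, with Benjamini-Hochberg adjustment over all genes. List values are means over the listed genes. Members and lists were chosen with earlier results of these data known. All members were named, with only some of the genes that the following rules gave. The rules took the list genes with the smallest adjusted p in AKO against WT (3 per list in vas deferens, 2 per list in epididymis). They also took the 5 genes most correlated with each member over male arrays, and the 3 nearest measured genes on each side. Stc1, Dock5 and Pgk2 were picked from these neighbours after their values were seen.

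The alternatives were quantile normalisation, median centring, 1 probe set per gene, only genes of above-median SD, robust eBayes, the compared groups alone, a block for the replicate number, each replicate left out, and the 3 arrays that stand apart left out. Each measured member has 1 probe set, so the choice of 1 probe set per gene left its values unchanged. Replicate numbers paired samples (all 3 correlations of deviations over 0.1) in WT epididymis with WT vas deferens (0.287, 0.176, 0.281), AKO epididymis with AKO vas deferens (0.143, 0.141, 0.190), AKO oviduct with WT oviduct (0.222, 0.289, 0.480) and AKO oviduct with AKO uterus (0.161, 0.457, 0.461), from the data and not the labels.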

Additional observations from a re-analysis of the deposited data

How the results depend on the processing

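Over 2100 alternative values of single genes, 2079 kept their side of the threshold. Of the rest, 7 passed it newly and 14 no longer did, and 0 values reversed a called direction. A turned sign in an uncalled difference was not counted, and some signs did turn, as for Crisp4 in AKO against WT epididymis. Most of the 2100 values belong to differences not called in the main fit, so the total says little about how the calls held. The lost calls fell on Adam7 in vas deferens AKDH against WT (12 of 14 held) and in AKO epididymis against AKO vas deferens (6 of 14). The rest fell on Crisp2 in WT epididymis against WT vas deferens (10 of 14 held). With only the groups compared fitted, vas deferens AKO against WT had 2 called, vas deferens DKO against AKO 1 and AKO oviduct against AKO uterus 1. With only genes of above-median SD tested, uterus AHDK against WT and vas deferens DKO against AKO had 1 each. Calls lost with quantile normalisation were Adam7 in vas deferens AKDH against WT (2.88, limma adjusted p 0.0780), Crisp2 in WT epididymis against WT vas deferens (2.33, 0.0639) and Adam7 in AKO epididymis against AKO vas deferens (2.30, 0.120). The last was also lost without the libraries that stand apart (0.0768) and with only the groups compared fitted (0.0556). With each replicate left out in turn, the number called was 0 to 1 in vas deferens AKDH against AKO, 2 to 3 in vas deferens AKDH against WT, 3 to 4 in WT epididymis against WT vas deferens, 2 to 3 in AKO epididymis against AKO vas deferens, and did not move elsewhere. The cause was not tested. The replicate block changed 0 of 176 calls, and with it vas deferens AKDH against WT kept 3 called. The fit of the compared groups alone is the same fit as reported for epididymis and oviduct against WT. Signal over background is lost to centring, 3 arrays per group limit every comparison, and 1 probe set stands for each gene.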
